A study of Mus musculus with 40 samples.

Results

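The 10 genes described here encode the kinases that act on RNA polymerase II outside the Mediator kinase module, with the proteins that activate or hold them: Cdk7, Ccnh and Mnat1, Cdk9, Ccnt1, Ccnt2 and Hexim1, and Cdk12, Cdk13 and Ccnk. They were taken by symbol (GENCODE M21) from 55536 genes with counts, and all 10 were found. Poly(A) RNA was sequenced from mouse embryonic stem cells (mESCs) that were wild type (WT, 2 biological replicates), or that had lost Ccnc (Ccnc KO clones named D1, G2 and H5) or Cdk8 (Cdk8 KO clones named B9, C8 and H4). Every clone and WT replicate was sampled after 4 h in DMSO and after 4 h in 900 nM AZD6738, an inhibitor of the checkpoint kinase ATR (ATRi). All of these cells, WT included, grew in serum with leukaemia inhibitory factor, and each knockout clone is a line expanded from a single CRISPR-edited cell, so that a clone is the biological replicate of a knockout. Each of the 4 WT libraries was read in both pools (multiplexes), once with the Ccnc KO libraries and once with the Cdk8 KO libraries, so the comparisons of the 2 knockouts with WT share their control RNA.

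RNA polymerase II carries a long repeated C-terminal domain (CTD) whose phosphorylation by cyclin-dependent kinases (CDKs) follows the transcription cycle. CDK7 with cyclin H (Ccnh) and MAT1 (Mnat1) forms the kinase of the initiation factor TFIIH and also activates other CDKs. CDK9 with cyclin T1 or T2 is P-TEFb, which releases paused polymerase, and HEXIM1 with the 7SK RNA holds P-TEFb inactive. CDK12 and CDK13, both with cyclin K, phosphorylate the CTD during elongation, and CDK12 is known for keeping long DNA repair genes expressed. CDK8 and cyclin C (Ccnc) belong to the Mediator kinase module and are the genes lost here, and the question is whether the transcripts of the other transcriptional kinases differ when either is lost.

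The 20 libraries held 30899823 to 67274049 counted reads (median 41972557), and each member was counted 1618 to 13997 times in every library used. WT replicate 2 under ATRi stood apart, was left out of the analysis by the study and is left out of the fits here, leaving 9 libraries in each; under ATRi the WT group is therefore 1 library. Ccnc itself was at 4.2 to 7.4 CPM (counts scaled by TMM library size) in the Ccnc KO libraries and 43.5 to 45.2 in WT (log2 fold change -2.93, SE 0.13). Cdk8 was at 52.3 to 64.5 CPM in the Cdk8 KO libraries and 71.2 to 78.6 in WT (-0.35, SE 0.058), so its transcript was still present, and WT replicate 2 under ATRi, at 57.7, lay among the knockouts. The Cdk8 call was lost without WT replicate 1 (-0.27, adjusted p = 0.491) and with the DMSO libraries alone (-0.33, adjusted p = 0.235). All 10 pluripotency markers were present (summed level 4930 to 5374 CPM in WT, 4450 to 5034 in Ccnc KO, 3714 to 4770 in Cdk8 KO). The sum over 10 primitive endoderm markers was 197 to 226 CPM in WT, 285 to 430 in Ccnc KO and 515 to 730 in Cdk8 KO, with the median of Foxa2 below 1 CPM in WT and Ccnc KO and that of Sox17 in WT. The 6 neuroectoderm markers summed to 51.8 to 56.6 CPM in WT, 31.9 to 43.4 in Ccnc KO and 37.6 to 56.6 in Cdk8 KO clones B9 and C8, against 103 to 115 in clone H4, with Hes5 and Zic1 below 1 CPM by median in each genotype. The 6 fibroblast markers summed to 3.89 to 5.38 CPM in WT, 6.49 to 11.1 in Ccnc KO, 7.20 to 8.65 in clones B9 and C8 and 19.7 to 23.1 in H4, with Col1a2, Col3a1, Dcn and Postn below 1 CPM by median in each genotype. The part of these markers in the values below was not tested, and in bulk RNA fewer cells of a type and less RNA per cell cannot be told apart.

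All 10 genes were expressed in every library, and their order per length was led by the P-TEFb inhibitor. In WT under DMSO Hexim1 was at 67.5 ± 2.7 RPKM (CPM divided by kilobases of exon, mean ± SD of n = 2 replicates, each averaged over its 2 multiplexes). Ccnk followed at 39.3 ± 1.6, Cdk7 at 31.8 ± 1.9, Cdk9 at 26.0 ± 1.3, Ccnh at 23.6 ± 0.64 and Cdk12 at 18.6 ± 2.0 RPKM. Ccnt2 (11.4 ± 0.43), Ccnt1 (11.3 ± 0.18) and Mnat1 (10.3 ± 1.2) could not be ordered, because the replicate ranges of Ccnt2 and Ccnt1 and those of Ccnt1 and Mnat1 overlapped. Cdk13 was lowest at 6.71 ± 0.30. Cdk12 was thus above its close relative Cdk13 at the level of transcripts per length, and each of their replicate ranges was apart from the other. Within each complex the cyclin and kinase were not at equal levels per length: Ccnk stood above both of its kinases, Ccnt1 and Ccnt2 each stood below Cdk9, and Mnat1 stood below Cdk7 and Ccnh. The length counts every annotated exon, whether used in these cells or not. By CPM in WT under DMSO (Ccnc multiplex) Cdk12 (217.5) was instead above Ccnk (120.9), and Ccnt2 (139.9) above Cdk9 (120.7). The other orders named in this comparison of complexes were the same by CPM.

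**Figure D1:**
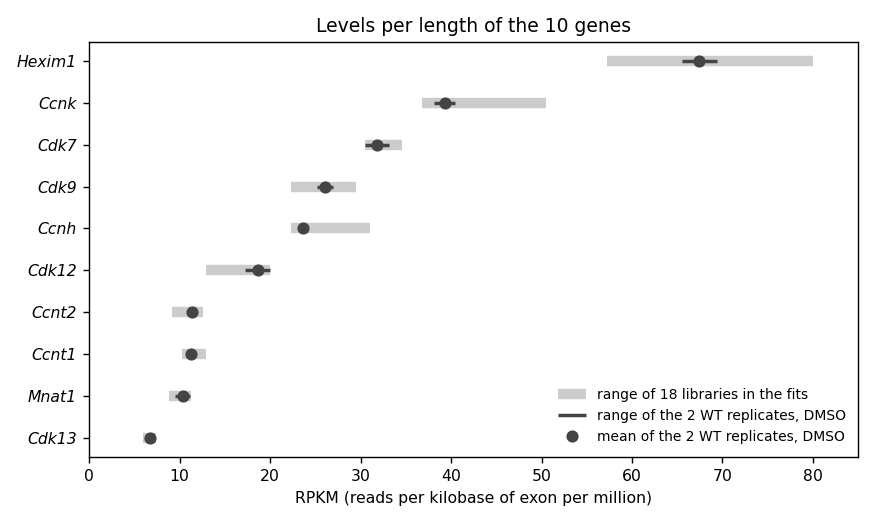
Level of each gene in RPKM. Points are means and dark lines ranges of the 2 WT replicates under DMSO, grey bars the range over the 18 libraries used in the fits; Hexim1 is highest at 67.5 RPKM and Cdk13 lowest at 6.71.

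The genes lie on 6 chromosomes (GRCm38), Cdk7 at chr13:100702631-100730939 (minus strand), Ccnh at chr13:85189408-85223469 (plus), Mnat1 at chr12:73123717-73273988 (plus), Cdk9 at chr2:32705784-32713076 (minus), Ccnt1 at chr15:98538689-98570923 (minus), Ccnt2 at chr1:127774164-127808061 (plus), Hexim1, a gene of a single exon, at chr11:103116231-103119725 (plus), Cdk12 at chr11:98203059-98278504 (plus), Cdk13 at chr13:17710315-17805097 (minus) and Ccnk at chr12:108179579-108203359 (plus). Counting used strand, and exon overlap on the same strand was found only for Cdk9, where 155 bases (3.4% of its exons) also belong to Mir2861 and Mir3960. Stretches of 100 or more bases at 95% identity or more to transcripts of another gene were found for Cdk9 (1 other gene), Ccnt1 (5) and Cdk12 (1), the longest being 357 aligned bases shared by Cdk12 and Gm14208, and reads from such stretches may have been split or dropped.

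To show what kind of promoters these genes have, the 250 bases before the RefSeq start (GRCm38.p6) were read for the 9 members with an entry, Ccnh having none. In GENCODE, exons of the gene itself or of a gene overlapping it cover the whole window of Ccnt1 and Cdk9 (250 bases), nearly all of that of Cdk12 (246), and part of those of Ccnk (159) and Hexim1 (94), and the values below include that exonic sequence. Their median GC content was 62.8% (43.2 to 78.8) against 52.4% over 32851 windows, and their median ratio of observed to expected CpG was 0.93 (0.75 to 1.14) against 0.37. As exact strings, TATAAA was in 0 of 9 windows (12.4% of all windows, both strands), GGGCGG in 7 (32.7% of all) and CCAAT in 4 (33.8% of all). Near matches were not counted, and the Hexim1 window holds the similar TATATAAG. The windows of Ccnt2, which has the lowest unadjusted p of the members in the Cdk8 KO comparison, and Mnat1, the member window with the lowest GC content, are printed 5′ to 3′ with CCAAT and GGGCGG on either strand in capitals. The Ccnt2 window (chr1:127773914-127774163, plus strand) overlaps an exon of the antisense RNA gene 2900009J06Rik over 165 bases, and an ATTGG and a GGGCGG overlap in it. The Mnat1 window (chr12:73123467-73123716, plus strand) lies in no annotated exon and holds none of these letters.
Ccnt2: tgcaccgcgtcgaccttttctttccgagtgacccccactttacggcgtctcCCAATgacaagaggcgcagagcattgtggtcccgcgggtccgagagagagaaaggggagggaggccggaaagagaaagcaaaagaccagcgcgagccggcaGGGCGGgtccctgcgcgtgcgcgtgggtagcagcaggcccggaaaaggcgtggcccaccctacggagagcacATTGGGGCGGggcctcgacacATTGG
Mnat1: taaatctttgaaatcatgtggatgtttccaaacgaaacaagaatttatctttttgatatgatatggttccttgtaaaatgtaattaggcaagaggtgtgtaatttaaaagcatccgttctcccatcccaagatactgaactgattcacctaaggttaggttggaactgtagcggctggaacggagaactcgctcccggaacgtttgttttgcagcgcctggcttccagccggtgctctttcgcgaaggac

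In Ccnc KO 1 of the 10 genes passed the test, near the share over all genes given below. Cdk12 fell in Ccnc KO cells, by 0.22 on the log2 scale (SE 0.068, 95% confidence interval -0.36 to -0.07, adjusted p = 0.0492, edgeR quasi-likelihood test over all genes). It passed in 6 of 12 alternative settings, and not with the clone as a random effect (adjusted p = 0.0613) or with the DMSO libraries alone (0.180). None rose. Over all 18577 genes tested in this comparison 12.3% passed, and 1.94% passed with more than a 2-fold change, which no member did. The median log2 fold change of the 10 genes was -0.05, and the median of its size was 0.09 against 0.16 over all genes tested. Losing Cdk8 went with no member past the test (0 of 10, edgeR), where 4.31% of 18721 genes passed and 1.05% passed with more than a 2-fold change. The median log2 fold change of the members was -0.09 there, and the median of its size was 0.09 against 0.15 over all genes tested. At an unadjusted p under 0.05 there were 2 members for Ccnc KO (Cdk12 and Ccnt2) and 3 for Cdk8 KO (Ccnt2, Cdk12 and Mnat1), all lower, where 26.7% and 21.3% of all genes were under that p. DESeq2 called Cdk12 and Ccnt2 in both, where it called 14.2% and 9.61% of all genes. In simulated counts a 1.5-fold change was called for 45 of 50 genes in the Ccnc KO design and 49 of 50 in the Cdk8 KO design, but a 25% change for only 17 and 15 of 50. These counts had the same spread for every gene, few changed genes and no deviation shared by the libraries of a clone. The data differ in this, so the recovered counts do not give the sensitivity of the tests here. In that setting most 25% changes were missed. The fitted changes of the members were smaller than 25%, and Cdk12 in Ccnc KO was called at -14.0%. Whether the simulated setting is easier or harder than the data was not tested. The 95% intervals of all members lay within -22.2% and 20.9% of the WT level for Ccnc KO and within -30.6% and 11.1% for Cdk8 KO. The fits behind these intervals had no term for the clone and count its DMSO and ATRi libraries as separate samples.

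**Figure D2:**
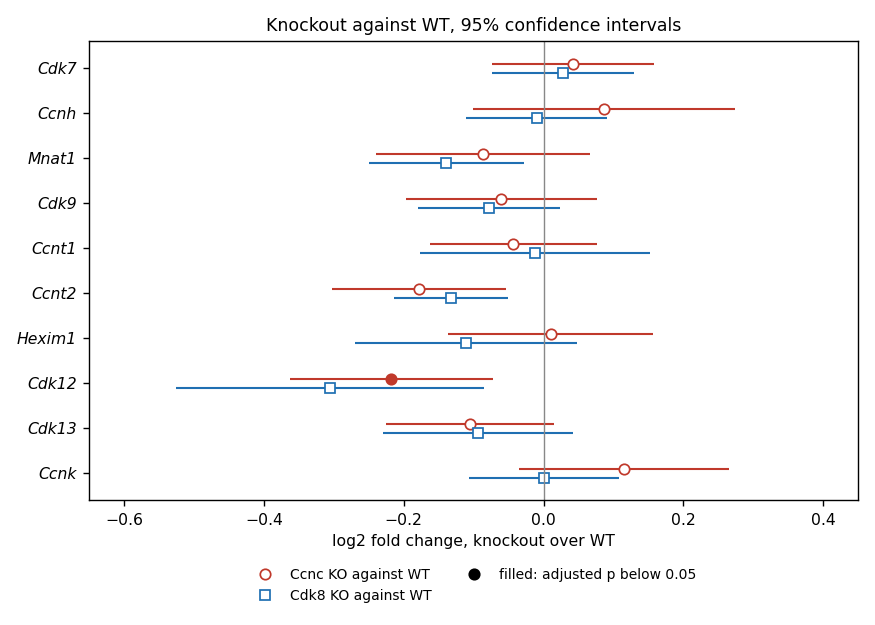
log2 fold change (knockout over WT) of each gene, with 95% confidence intervals, for Ccnc KO (red circles) and Cdk8 KO (blue squares). Filled symbols have an adjusted p below 0.05: only Cdk12 in Ccnc KO, at -0.22; the intervals of Cdk12 and Ccnt2 lie below 0 in both.

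Cdk12, the kinase of elongation and of long DNA repair genes, had the largest fitted difference of the 10 in either knockout. Under DMSO it was at 200.4 and 234.6 CPM in the WT replicates and at 192.3 (D1), 160.0 (G2) and 187.0 (H5) in the Ccnc KO clones of that multiplex. Under ATRi WT replicate 1 was at 226.3 and the clones were at 203.0, 213.9 and 200.6. Each Ccnc KO clone was below WT of the same treatment under DMSO and under ATRi, but the groups overlapped once treatments were put together. In the Cdk8 multiplex the WT replicates were at 203.4 and 234.8 CPM under DMSO and clones B9, C8 and H4 at 202.3, 170.9 and 151.5. Under ATRi the values were 228.5 in WT and 204.2, 199.6 and 162.5 in the clones. Clone B9 was level with the lower WT replicate under DMSO, and clone H4, which also had the highest neuroectoderm and fibroblast and the lowest pluripotency marker sums (the last 3714 to 3918 CPM against 4279 to 4770 in B9 and C8), was lowest under both treatments. Without H4 the change was -0.21 (adjusted p = 0.0953). The fitted change for Cdk8 KO was larger than for Ccnc KO but less certain, at -0.31 (SE 0.099, interval -0.53 to -0.08, adjusted p = 0.114). The Ccnc KO call was lost without WT replicate 1, where the fitted change grew to -0.38 (adjusted p = 0.0934), and without WT replicate 2, where it shrank to -0.15 (0.223). It was also lost without clone G2 (-0.18, 0.129) or clone H5 (-0.23, 0.0864), with the DMSO libraries alone (-0.26) and with the clone as a random effect (-0.22). For Cdk8 KO, Cdk12 passed when clone B9 was left out (-0.40, adjusted p = 0.0316).

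Ccnt2 encodes cyclin T2, a partner of CDK9 in P-TEFb. Its level was 134.7 and 145.2 CPM in WT under DMSO and 126.2 (D1), 113.4 (G2) and 126.0 (H5) in Ccnc KO. Under ATRi it was 149.6 in WT and 124.7, 141.2 and 137.1 in the same clones. Beside the Cdk8 KO clones it was 139.0 and 143.5 in WT under DMSO against 131.1, 128.9 and 129.5 in B9, C8 and H4, and 155.3 against 141.9, 141.1 and 136.5 under ATRi. Each knockout clone was therefore below WT of its multiplex under both treatments. The 2 libraries of a clone are not independent, WT under ATRi was 1 library, and both multiplexes share the WT RNA. The share of all genes for which this held was not counted. Under DMSO the 3 Cdk8 KO clones lay close together (129.9 ± 1.2 CPM, SD, n = 3). The log2 fold change was -0.18 (SE 0.058, adjusted p = 0.0607) for Ccnc KO and -0.13 (SE 0.037, adjusted p = 0.0713) for Cdk8 KO. Neither passed the threshold.

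Counting only the DMSO libraries, 3 clones against 2 WT replicates, Cdk12 and Ccnt2 were lower without overlap in Ccnc KO (2 of 10 members, where 19.0% of all genes tested were lower and 17.7% higher without overlap). In Cdk8 KO the same was true of Cdk12, Ccnt2, Hexim1 and Mnat1 (4 of 10, against 14.6% lower and 16.0% higher over all genes). No member was higher without overlap in either. With both treatments together no member was free of overlap, against 14.4% of genes for Ccnc KO and 12.7% for Cdk8 KO in either direction.

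**Figure D3:**
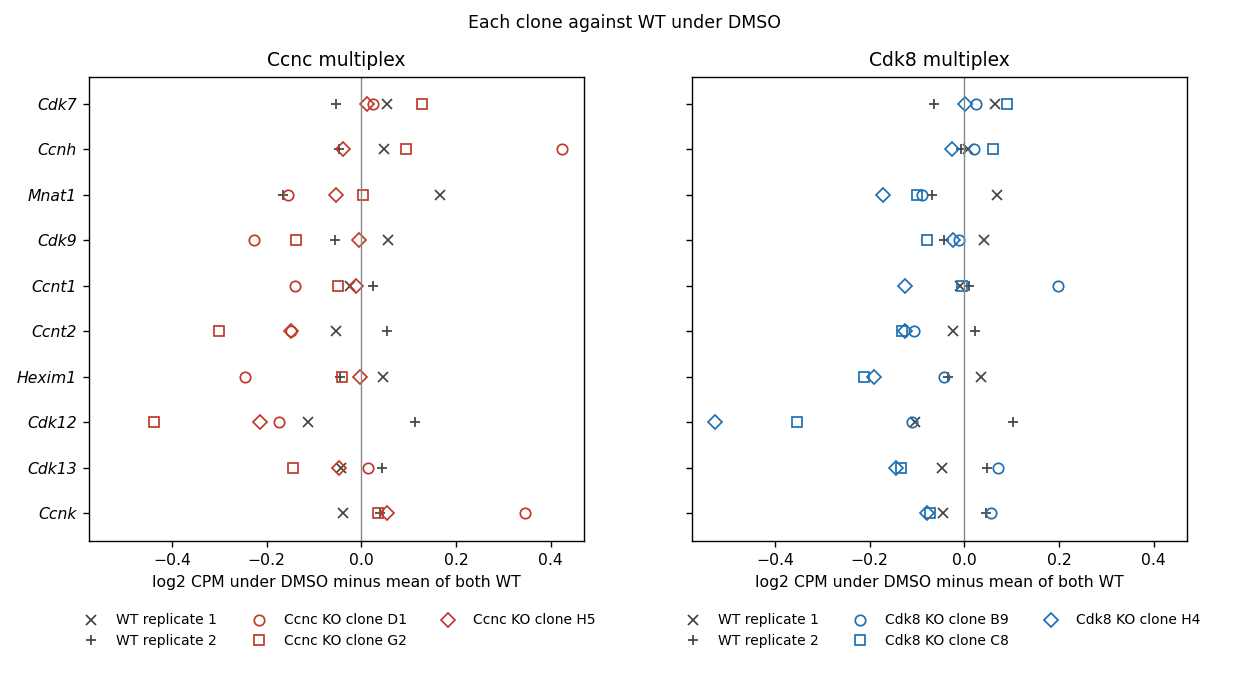
log2 CPM of each library under DMSO minus the mean of both WT replicates, by gene, for the Ccnc multiplex (left) and the Cdk8 multiplex (right). Crosses are the WT replicates and open symbols the clones; for Cdk12 and Ccnt2 all 6 clones lie left of both crosses.

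The 3 genes of the CDK-activating kinase did not pass the test in either knockout. Cdk7, the kinase itself, was near WT in both. It was at 121.6 and 112.8 CPM in WT under DMSO against 119.1, 128.1 and 118.1 in D1, G2 and H5, and at 122.7 against 125.3, 120.1 and 125.7 under ATRi. In the Cdk8 multiplex it was at 123.7 and 113.1 in WT under DMSO against 120.4, 126.0 and 118.4 in B9, C8 and H4, and at 121.6 against 119.9, 127.4 and 120.4 under ATRi. WT and knockout values were interleaved, and the intervals of the change were -0.07 to 0.16 (Ccnc KO) and -0.07 to 0.13 (Cdk8 KO), or from -4.96% to 11.6% and from -5.01% to 9.41% of the WT level.

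Cyclin H, the partner of CDK7, varied more among the Ccnc KO clones than between genotypes. Ccnh was at 74.2 and 69.4 CPM in WT under DMSO and at 96.2 in clone D1 against 76.6 in G2 and 69.9 in H5. Under ATRi clone D1 was at 72.0, G2 at 69.7, H5 at 76.9 and WT at 75.6, so the high value of D1 was in its DMSO library alone. The Cdk8 KO clones B9, C8 and H4 were at 75.8, 77.9 and 73.5 under DMSO (WT 75.2 and 74.3) and at 79.0, 79.0 and 73.9 under ATRi (WT 80.2). The log2 fold changes were 0.09 (SE 0.088, adjusted p = 0.576) and -0.01 (SE 0.045, adjusted p = 0.930).

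Mnat1, the assembly factor MAT1, had the largest fitted decrease of this group. It was at 60.0 and 47.6 CPM in WT under DMSO and at 48.0, 53.6 and 51.5 in D1, G2 and H5, values that lay between the WT replicates. Under ATRi it was at 52.5 in WT and at 48.3, 48.0 and 49.5 in the same clones, all below WT. In the Cdk8 multiplex WT was at 60.3 and 54.9 under DMSO and 54.0 under ATRi. The clones B9, C8 and H4 were at 54.1, 53.7 and 51.1 under DMSO and 47.3, 47.9 and 49.1 under ATRi, below WT of the same treatment in each case. The fitted change was -0.14 (SE 0.050, adjusted p = 0.146) for Cdk8 KO and -0.09 (SE 0.072, adjusted p = 0.478) for Ccnc KO. Both moved with the choice of WT libraries. For Ccnc KO the value was 0.10 without WT replicate 1, -0.17 without WT replicate 2 and 0.02 with WT replicate 2 under ATRi included. For Cdk8 KO it was -0.06 without WT replicate 1 and -0.02 with WT replicate 2 under ATRi included. The second WT replicate under DMSO was the same RNA in both multiplexes and read 47.6 CPM beside the Ccnc KO clones but 54.9 beside the Cdk8 KO clones, a gap wider than that between the genotype means.

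Of the remaining P-TEFb genes, Cdk9 was at 125.4 and 116.0 CPM in WT under DMSO and at 103.1, 109.6 and 120.1 in D1, G2 and H5, with 118.4, 113.0 and 117.4 in B9, C8 and H4 (WT 122.9 and 116.0). Under ATRi Cdk9 was at 126.1 in WT and 127.3, 136.0 and 122.2 in D1, G2 and H5, and at 129.8 in WT and 121.9, 112.6 and 118.8 in B9, C8 and H4. Its fitted changes were -0.06 (SE 0.064, adjusted p = 0.591) and -0.08 (SE 0.046, adjusted p = 0.358). Ccnt1, cyclin T1, was at 101.7 and 105.1 in WT and at 93.9, 99.9 and 102.7 in D1, G2 and H5, while the Cdk8 KO clones spread from 94.7 (H4) through 103.0 (C8) to 118.5 (B9) around WT at 102.6 and 104.0. Under ATRi it was at 109.2 in WT and 100.8, 112.4 and 109.9 in D1, G2 and H5, and at 114.0 in WT and 116.9, 106.6 and 100.6 in B9, C8 and H4. The spread of the Cdk8 KO clones for Ccnt1 was wider than the distance between the genotype means, and the fitted changes were -0.04 (SE 0.056) and -0.01 (SE 0.074), with adjusted p of 0.673 and 0.946. Hexim1 was at 244.8 and 229.7 CPM in WT under DMSO and at 200.0, 230.3 and 236.7 in D1, G2 and H5. Beside the Cdk8 KO clones it was at 240.1 and 228.6 in WT and 227.5, 202.4 and 205.2 in B9, C8 and H4. Its change was 0.01 (SE 0.069, adjusted p = 0.946) for Ccnc KO and -0.11 (SE 0.071, adjusted p = 0.408) for Cdk8 KO.

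Cdk13 and Ccnk, which encode the close relative and the cyclin of CDK12, did not pass in either knockout. Cdk13 was at 86.3 and 91.6 CPM in WT under DMSO against 89.8, 80.4 and 86.1 in D1, G2 and H5, and at 88.7 and 94.7 against 96.2, 83.5 and 82.9 in B9, C8 and H4. Under ATRi it was at 98.1 in WT against 86.2, 86.8 and 84.9 in D1, G2 and H5, and at 99.2 against 93.6, 92.2 and 84.9 in B9, C8 and H4. Under ATRi all knockout libraries were below the 1 WT library of their multiplex, and the groups overlapped under DMSO. Its change was -0.11 (SE 0.056, adjusted p = 0.248) and -0.09 (SE 0.061, adjusted p = 0.416). Ccnk was at 117.6 and 124.1 in WT against 153.5, 123.9 and 125.5 in D1, G2 and H5, and at 114.6 and 122.0 against 123.0, 112.4 and 112.0 in B9, C8 and H4. Its ATRi values were 118.8 in WT and 130.0, 119.9 and 118.6 in D1, G2 and H5, and 120.3 in WT and 123.9, 128.1 and 121.8 in B9, C8 and H4. The Ccnk change was 0.12 (SE 0.070, adjusted p = 0.318) for Ccnc KO and 0.00 (SE 0.048, adjusted p = 0.996) for Cdk8 KO.

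Clone by clone, Cdk12 and its cyclin gene Ccnk lay at different distances from WT. Under DMSO clone D1 was 0.17 below the WT mean for Cdk12 on the log2 scale and 0.35 above it for Ccnk, and clone G2 was 0.44 below for Cdk12 and 0.04 above for Ccnk. In the Cdk8 KO clones Cdk12 was 0.11 (B9), 0.35 (C8) and 0.53 (H4) below the WT mean, while Ccnk was 0.06 above, 0.07 below and 0.08 below. The 2 WT replicates were themselves 0.23 apart for Cdk12 beside the Ccnc KO clones and 0.21 apart beside the Cdk8 KO clones. Cdk9, Cdk12, Ccnt2 and Hexim1 were each below the WT mean in all 6 clones, Cdk9 by 0.01 to 0.23. The share of all genes for which this held was not counted, and both multiplexes share the WT RNA. For Cdk9 the WT replicates were 0.11 apart beside the Ccnc KO clones and 0.08 apart beside the Cdk8 KO clones. Clones H5, B9 and H4 lay between them. For Hexim1 the WT replicates were 0.09 apart beside the Ccnc KO clones, and clones G2 and H5 lay between them. The fitted Ccnc KO change of Hexim1 was 0.01. Ccnt1 was below the WT mean in the 3 Ccnc KO clones as well (0.14 in D1, 0.05 in G2 and 0.01 in H5, against 0.23, 0.14 and 0.01 for Cdk9). Clone D1 was the outlying clone for Ccnh, Ccnk and Hexim1 (0.42 above, 0.35 above and 0.25 below the WT mean), each of which returned toward the other clones in its ATRi library.

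**Figure D4:**
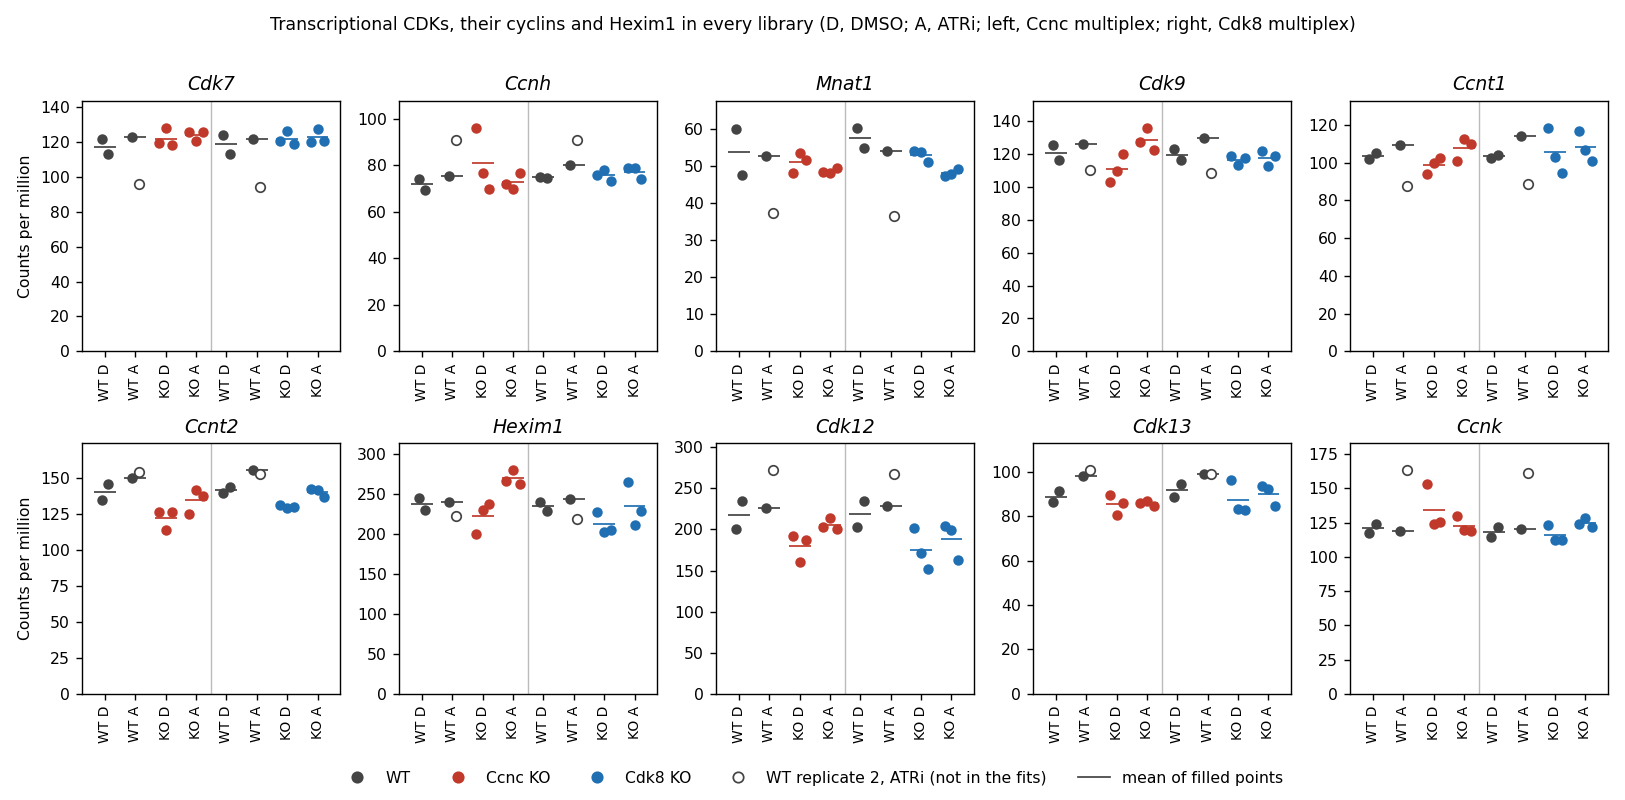
CPM of each gene in every library, on axes that start at 0. Within each panel the Ccnc multiplex is left and the Cdk8 multiplex right of the grey line, filled points are libraries in the fits, lines their group means, and open points WT replicate 2 under ATRi; under DMSO the mean of Cdk12 is lower in both knockouts than in WT, as is that of Ccnt2.

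After 4 h of ATR inhibition 0 of the 10 genes passed the unpaired edgeR test in either multiplex. Of all genes tested, 1.11% passed in the Ccnc multiplex, and for the Cdk8 multiplex the share was 0.0855%. At an unadjusted p under 0.05 there were 4 members in the Ccnc multiplex (Hexim1, Cdk9, Cdk12 and Ccnt2, all higher under ATRi) and 2 in the Cdk8 multiplex (Ccnt2 higher, Mnat1 lower), where 16.2% and 11.5% of all genes were under that p. DESeq2 called 0 members in each, where it called 3.5% and 2.02% of all genes. Without clone G2 the Ccnc multiplex values fell from 0.15 to 0.08 for Cdk12 and from 0.12 to 0.07 for Ccnt2, neither then under an unadjusted p of 0.05. Cdk9 was higher under ATRi by 0.30 in D1 and 0.31 in G2, but by 0.02 in H5 and 0.01 in WT replicate 1. Its fitted value in the Cdk8 multiplex was 0.05. Since the DMSO and ATRi libraries of a clone come from the same line, the fit was repeated with each clone or WT replicate as a block. The block left the Ccnc multiplex at 0 of 10 members (2.43% of all genes) and called 3 of 10 in the Cdk8 multiplex, where 11.3% of all genes passed. There Cdk12 rose by 0.13 (SE 0.036, adjusted p = 0.0340), Ccnt2 rose by 0.12 (SE 0.031, adjusted p = 0.0238) and Mnat1 fell by 0.14 (SE 0.039, adjusted p = 0.0271) on the log2 scale. Ccnt2 was higher under ATRi in all 3 Cdk8 KO clones (by 0.08 to 0.13) and in WT replicate 1 (by 0.16), and Mnat1 was lower in all 3 (by 0.06 to 0.19) and in WT replicate 1 (by 0.16). In the same paired fit of the Ccnc multiplex the values were 0.19 for Cdk12 (SE 0.061, adjusted p = 0.121), 0.14 for Ccnt2 (SE 0.059, adjusted p = 0.230) and -0.10 for Mnat1 (SE 0.059, adjusted p = 0.371). The 2 multiplexes share the WT RNA.

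Hexim1, whose product inhibits P-TEFb, had the largest fitted ATRi difference in the Ccnc multiplex, at 0.19 (SE 0.065, adjusted p = 0.159). Under ATRi it was at 265.5 (D1), 279.8 (G2) and 262.0 (H5) CPM, above all 3 DMSO libraries of these clones, while WT replicate 1 went from 244.8 to 239.5. In the Cdk8 KO clones it went from 227.5 to 264.5 in B9, from 202.4 to 211.5 in C8 and from 205.2 to 227.8 in H4, with WT replicate 1 going from 240.1 to 243.3 (fitted 0.12, SE 0.068, adjusted p = 0.554, and 0.11, SE 0.035, adjusted p = 0.0504 with the block). Clone D1 rose most, by 0.41 on the log2 scale, from a DMSO value 0.25 below the WT mean. WT replicate 2, whose ATRi library is in no fit, changed by -0.05 in the Ccnc and -0.06 in the Cdk8 multiplex. All 6 clones were higher under ATRi, and the share of all genes for which this held was not counted. Whether this response differed from that of WT was tested as an interaction, which gave 0.25 (SE 0.13, interval -0.04 to 0.53) in the Ccnc multiplex, neither it nor the 0.09 (SE 0.15, interval -0.26 to 0.44) of the Cdk8 multiplex passing (adjusted p = 1.00 for both).

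**Figure D5:**
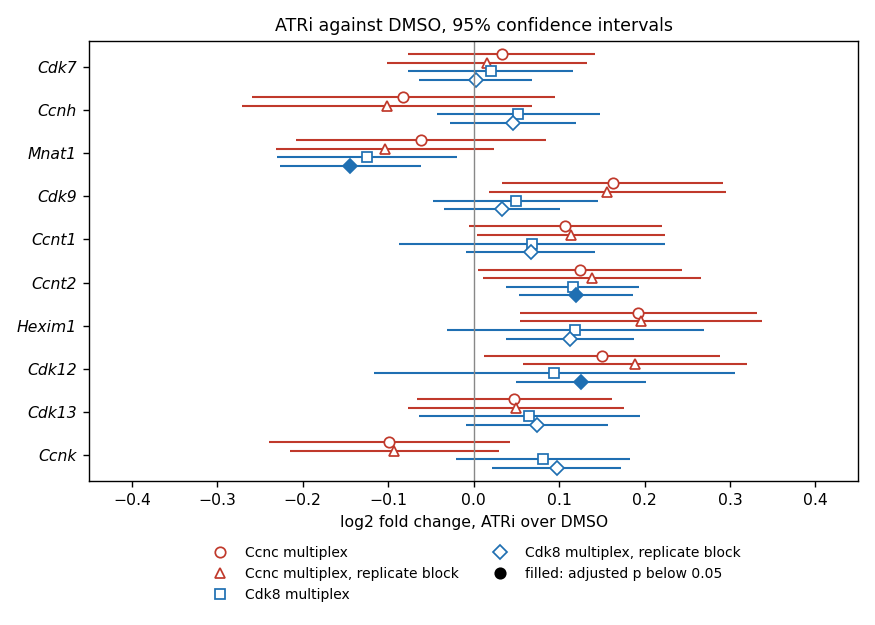
log2 fold change (ATRi over DMSO) of each gene with 95% confidence intervals, from the fits without a block (circles and squares) and with each clone or WT replicate as a block (triangles and diamonds). Filled symbols have an adjusted p below 0.05: Mnat1, Ccnt2 and Cdk12 in the Cdk8 multiplex with the block.

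Whether knockouts and WT differed in their response to ATRi was tested for all members as an interaction, and no member passed (edgeR, 0 of 10 in each multiplex, none at an unadjusted p under 0.05, and 0 by DESeq2). The share of all genes that passed was 0.0% in both multiplexes, with 395 and 255 genes at an unadjusted p under 0.05. This test had only WT replicate 1 under ATRi, and in simulated counts with the settings above it called 8 and 10 of 50 genes with a 1.5-fold difference. Its intervals reached from -34.9% to 44.2% over the members beside Ccnc KO and from -27.7% to 46.2% beside Cdk8 KO. Ccnc KO was then compared with Cdk8 KO over both multiplexes (limma voom with the clone as a random effect). 0 of 10 members passed, none at an unadjusted p under 0.05, and 0 by edgeR without the random effect. Over all genes 0.00545% passed, which is 1 gene, Ccnc itself. Cdk8, at 0.25 (SE 0.072), did not pass. In counts simulated for this comparison 1 of 50 genes with a 25% change was called and 36 of 50 with a 1.5-fold change. The absence of calls therefore does not show that the knockouts are alike. The differences of the members, Ccnc KO over Cdk8 KO, ran from -0.04 (Ccnt2, SE 0.067) to 0.14 (Hexim1, SE 0.098), and that of Cdk12 was 0.10 (SE 0.11, interval -0.12 to 0.32).

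The other genes of these pathways were read beside the members: 40 genes of the TFIIH core, the 7SK particle, the factors that recruit P-TEFb, pausing and elongation factors, other CDKs and cyclins of transcription and splicing, and the CTD with its phosphatases. Of these 39 passed the filter on low counts, Ell3 being the exception. In Ccnc KO 2 of 39 rose and 1 fell, and in Cdk8 KO 1 rose and 0 fell, against the 12.3% and 4.31% of all genes given above. None of the 7 TFIIH core genes and none of the 3 genes of the 7SK particle passed in either knockout, and the median log2 fold change of the TFIIH core was -0.01 in Ccnc KO and -0.03 in Cdk8 KO.

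Ssu72, a phosphatase of serine 5 of the CTD, was the 1 related gene past the test in both. It was at 100.1 and 99.6 CPM in WT under DMSO and at 117.5, 119.6 and 121.2 in D1, G2 and H5 (log2 fold change 0.26, SE 0.054, adjusted p = 0.00625). Beside the Cdk8 KO clones it was at 101.2 and 101.1 in WT and at 115.6, 117.8 and 116.5 in B9, C8 and H4 (0.21, SE 0.039, adjusted p = 0.0201). No knockout library overlapped WT. The call was lost in both with the DMSO libraries alone and without WT replicate 1 (adjusted p = 0.0671 and 0.200 for Ccnc KO, 0.288 and 0.487 for Cdk8 KO), and for Cdk8 KO also without WT replicate 2 (0.0687), without clone C8 (0.0988) and with the clone as a random effect (0.102). The fitted change stayed between 0.21 and 0.29 for Ccnc KO and between 0.18 and 0.22 for Cdk8 KO over all settings.

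Aff1 and Aff4, scaffolds of the super elongation complex that carries P-TEFb, moved in opposite directions in Ccnc KO. Aff1 rose by 0.58 (SE 0.072, adjusted p = 0.000140), from 31.9 and 29.6 CPM in WT under DMSO to 43.0, 44.3 and 47.1 in D1, G2 and H5. Aff4 fell by 0.29 (SE 0.060, adjusted p = 0.00496), from 360.5 and 378.4 CPM to 287.6, 265.8 and 308.8. The Aff4 call was lost with WT replicate 2 under ATRi included (-0.20, adjusted p = 0.182) and without WT replicate 1 (-0.40, adjusted p = 0.0652). In Cdk8 KO the clones were spread for Aff1, with 54.2 CPM in B9, 33.6 in C8 and 25.6 in H4 around WT at 32.2 and 30.1, and neither gene passed (0.28, SE 0.25, adjusted p = 0.556 for Aff1, and -0.12, SE 0.050, adjusted p = 0.194 for Aff4).

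Under ATRi 2 of 39 related genes passed in the Ccnc multiplex, both higher, and 0 of 39 in the Cdk8 multiplex, beside 1.11% and 0.0855% of all genes. Polr2a, the polymerase subunit whose CTD these kinases modify, rose by 0.49 (SE 0.069, adjusted p = 0.00469). It was at 736.0 CPM in WT replicate 1, 687.0 in D1, 677.5 in G2 and 839.0 in H5 under DMSO and at 1037.1, 1026.4, 1145.0 and 1011.2 under ATRi. All 4 pairs were higher under ATRi. Supt5, a subunit of the pausing factor DSIF and a substrate of CDK9, rose by 0.23 (SE 0.052, adjusted p = 0.0420), from 398.1, 349.9, 357.4 and 395.1 CPM to 454.4, 453.2, 446.4 and 420.5. In the Cdk8 multiplex the values were 0.43 (SE 0.082, adjusted p = 0.103) for Polr2a and 0.19 (SE 0.038, adjusted p = 0.103) for Supt5, and with the replicate block, where 11.3% of all genes passed, 6 of 39 rose and 2 fell, among them Polr2a (0.46, adjusted p = 1.1e-05) and Supt5 (0.19, adjusted p = 0.00179). The Polr2a call was lost without clone G2 (0.42, adjusted p = 0.0670), and the Supt5 call without any 1 clone or WT replicate (adjusted p 0.0548 to 0.236) and with WT replicate 2 under ATRi included (0.0941). The fitted change of Supt5 stayed between 0.19 and 0.28 over all settings.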

How the data were processed

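The data are raw gene counts that the authors deposited in 2 tables, one per multiplex. Per the labels and the study's methods, single-end reads were trimmed with Trimmomatic 0.38, aligned to GRCm38.p6 with HISAT2 2.1.0 and counted per gene with the reverse-stranded setting with featureCounts 2.0.1, ignoring duplicates. A second pair of tables with regularized log values was not used. The 2 lanes of a library were summed. Counts were tested in R 4.3.3 with edgeR 4.0.16 (TMM, filterByExpr, quasi-likelihood test, Benjamini-Hochberg adjustment over all genes, threshold 0.05), with genotype and treatment as terms, or with their interaction. The study's model formula is not given in the sources used here. Knockouts were compared with each other in limma 3.58.1 (voom, clone or WT replicate as a random effect, multiplex and treatment as covariates). CPM values use TMM library sizes, and RPKM divides them by the length of merged exons. Fits were tested on simulated data. DESeq2 1.42.0 and the other alternatives are given under the dependence on processing.

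The members and all lists were chosen with earlier results of these data known. Values are given for all 10 members in every library, for Ccnc and Cdk8, and for related genes past the test in both knockouts or among the 3 largest changes called in a comparison. Libraries of 1 clone share a cell line, which is where the pairing in the replicate block comes from. Their deviations from the group means correlated at 0.18 (D1), 0.02 (G2), 0.18 (H5), 0.55 (B9), 0.18 (C8) and 0.63 (H4). Replicates of WT are biological replicates per the labels. The edgeR genotype fits had no term for the clone, so the DMSO and ATRi libraries of a clone counted as separate samples. Their intervals and p-values therefore do not measure the spread between clones and can be too narrow. With the clone as a random effect, the correlation within a clone was 0.12 for Ccnc KO and 0.56 for Cdk8 KO against WT. Those fits too cover clones of a few lines only.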

Additional observations from a re-analysis of the deposited data

Results flagged for a closer look

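WT replicate 2 under ATRi, which is in no fit above, lay outside the range of the other 9 libraries in both multiplexes, on the same side, for 6 of the 10 genes. Over the 18130 genes tested in both multiplexes 31.3% did so. It was higher for the 3 genes of the CDK12 and CDK13 group: Cdk12 at 272.5 and 267.9 CPM (others 160.0 to 234.6 and 151.5 to 234.8), Cdk13 at 100.9 and 99.3 (others 80.4 to 98.1 and 82.9 to 99.2) and Ccnk at 163.5 and 161.1 (others 117.6 to 153.5 and 112.0 to 128.1), each in the Ccnc and the Cdk8 multiplex. It was lower for Cdk7 at 95.7 and 94.1 (others 112.8 to 128.1 and 113.1 to 127.4), Mnat1 at 37.3 and 36.6 (others 47.6 to 60.0 and 47.3 to 60.3) and Ccnt1 at 87.7 and 88.8 (others 93.9 to 112.4 and 94.7 to 118.5). Both readings come from the same RNA, so the second does not replicate the first. With this library included, the Cdk12 change was -0.36 in Cdk8 KO (adjusted p = 0.0474). Groups of 2 or 3 libraries were not tested for single outlying samples.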

How the results depend on the processing

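Each comparison was refitted with DESeq2, with RLE normalization, on all genes with 1 or more counts, with WT replicate 2 under ATRi included, with GC and length offsets and without each clone or WT replicate. The genotype fits were repeated on the DMSO libraries only and with the clone as a random effect, the ATRi and interaction fits with the replicate block. In Ccnc KO against WT the count of 1 member became 2 (Cdk12 and Ccnt2) with DESeq2 and with all counted genes, where 2968 of 29492 genes passed. It became 0 on the DMSO libraries and with the clone as a random effect, and leaving out a replicate gave 0 to 1. In Cdk8 KO against WT the count of 0 became 2 with DESeq2 and 1 (Cdk12) with all counted genes, where 1130 of 29765 genes passed. It was also 1 (Cdk12) with WT replicate 2 under ATRi, where 1130 of 17863 genes passed, and leaving out a replicate gave 0 to 1. For ATRi, 1 member (Hexim1) passed with all counted genes in the Ccnc multiplex, where 845 of 29492 genes passed. With the replicate block 3 passed in the Cdk8 multiplex, where 11.3% of all genes passed. The block changed no other member's call: with it 0 members passed for ATRi in the Ccnc multiplex and 0 in either interaction. No member was called in opposite directions by 2 settings.

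Counts over all genes moved more. Ccnc KO against WT gave 2284 calls and 635 on the DMSO libraries, Cdk8 KO gave 806 and 5 there (1799 with DESeq2, 237 with the clone as a random effect), and ATRi gave 206 (41 to 845) and 16 (13 to 2107, the highest with the replicate block). Without WT replicate 1 the counts were 289 for Ccnc KO and 1 for Cdk8 KO. Ccnc KO gave 1387 without clone G2 and 1566 without WT replicate 2. Cdk8 KO gave 263 without WT replicate 2, 247 without clone C8, 1512 without B9 and 1326 without H4. For ATRi the counts with a replicate left out were 21 to 250 in the Ccnc multiplex (lowest without WT replicate 1, with 25 without G2 and 34 without H5) and 0 to 29 in the Cdk8 multiplex (lowest without WT replicate 1). The interaction went from 0 to 20 with all counted genes in the Ccnc multiplex and from 0 to 4 with the replicate block in the Cdk8 multiplex, and Ccnc KO against Cdk8 KO went from 1 to 58 without clone B9. The interaction without WT replicate 1 could not be fitted, since no WT library under ATRi is left. The cause of these shifts was not tested. Each member was counted at least 1618 times in every library used.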
